A study of Mus musculus with 3 samples.

Results

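Mt1 and Mt2 are the metallothionein genes expressed in most mouse tissues, and they were chosen here by name from the authors' deposited tables of genes that differed between knockout and control islet cells. They are 2 of the 8237 genes listed in those tables. Both are listed for beta cells, Mt1 alone for delta cells, and neither for alpha cells, where they were not analysed here. Islets came from NOD/ShiLtJ mice, a strain prone to autoimmune diabetes, aged 5 weeks. The control group was 1 mouse of genotype IRE1αfl/fl, and the knockout group was 2 mice of genotype IRE1αβ-/-, which lack the stress sensor IRE1α (gene Ern1) in beta cells. All 3 mice were given tamoxifen, at 10 mg per ml over 5 days, so the drug was shared by control and knockout. Islets were held overnight at 37 °C in culture before single cells were profiled in droplets, and the labels do not name the promoter that drove Cre.

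Metallothioneins are small, cysteine-rich proteins that bind zinc and copper and buffer these metals in the cell. Excess zinc is sensed by the factor MTF1, which binds metal response elements in the promoters of Mt1 and Mt2 and raises their transcription. Both genes are also known to respond to glucocorticoids, oxidative stress, cytokines and low oxygen. Beta cells are rich in zinc, which they store in granules together with insulin.

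The genes are neighbours. In mm10, with the GENCODE annotation, Mt2 (ENSMUSG00000031762) spans chromosome 8, 94172664 to 94173568, and Mt1 (ENSMUSG00000031765) spans 94179082 to 94180327, both on the plus strand. A gap of 5513 bases lies between them. Upstream on the same strand are Mt3 (94152607 to 94154146), best known from brain, and Mt4 (94137197 to 94139031), best known from squamous epithelium. Each of Mt1 and Mt2 has 3 exons in the transcripts compared and encodes 61 amino acids. Over the 186 coding bases, 148 (79.6%) are the same in both. The longest stretch that the transcripts share is 20 bases. The read length and the end of the transcript that was read were not stated, so the split of reads between the genes was not tested. The antisense gene Gm45774 (94170748 to 94173412, minus strand) covers 749 of the 905 bases of Mt2. It is not listed, and whether counting used the strand was not stated, so reads of Mt2 and Gm45774 cannot be told apart.

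The promoters are shown because both genes were lower to a like degree in beta cells. They are the 250 bases before the RefSeq start site (build GRCm38.p6, the assembly of mm10, plus strand). For Mt1 a 25-base stretch follows that begins at base 3 counted from that annotated site. Capitals mark the metal response element core, searched as TGCACNC or TGCGCNC on both strands.
Mt2, chr8:94172368-94172617: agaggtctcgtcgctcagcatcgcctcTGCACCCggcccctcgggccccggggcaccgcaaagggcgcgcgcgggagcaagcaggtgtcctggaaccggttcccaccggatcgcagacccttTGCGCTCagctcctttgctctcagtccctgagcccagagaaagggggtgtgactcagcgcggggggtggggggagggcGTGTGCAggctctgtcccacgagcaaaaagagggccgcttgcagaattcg
Mt1, chr8:94178839-94179088: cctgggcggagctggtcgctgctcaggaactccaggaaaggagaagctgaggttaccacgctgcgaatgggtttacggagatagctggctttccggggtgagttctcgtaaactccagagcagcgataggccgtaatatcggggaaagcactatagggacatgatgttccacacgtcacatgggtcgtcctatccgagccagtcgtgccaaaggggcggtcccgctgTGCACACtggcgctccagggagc
Mt1, chr8:94179091-94179115: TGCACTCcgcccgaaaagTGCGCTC
In the window from 250 bases before to 50 past the start, Mt2 held 4 such matches and Mt1 held 3. The matches of Mt2 began 223, 128 and 50 bases before the start, with 1 more past it. Mt1 had 1 match at 23 bases before its annotated start and 2 in the short stretch past that site. Mt3 and Mt4 each held 1. Of 32851 RefSeq promoter windows of the same length, 25.7% held at least 1 match, 1.97% at least 3 and 0.518% at least 4. The antioxidant response element core TGACNNNGC, searched on both strands, occurred 1 time in the window of Mt2, at 79 bases before the start, and 0 times in that of Mt1 (12.4% of windows held it). The hypoxia response element core ACGTG, searched likewise, occurred 1 time in the window of Mt1, also at 79 bases before the start, and 0 times in that of Mt2 (19.6% of windows). These are matches of letters, and no binding was measured. All counts rest on the RefSeq start sites, and bases more than 50 past them were not searched. Of the 549 bases of the Mt1 transcript compared, 186 are coding and 134 lie past the stop. A core further into the bases ahead of the coding part would be missed. A count of 0, or a difference between Mt1 and Mt2, thus holds for these windows alone. Where transcription began in these cells was not measured. GENCODE starts Mt1 at 7 bases before the RefSeq start and Mt2 at 46 bases past it, which shifts each distance by as much.

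Values are mean UMIs per cell, where a UMI (unique molecular identifier) stands for 1 captured transcript, so levels of different genes were compared without scaling to length. The beta table rests on 829 control cells and on 815 knockout cells in which both mice were pooled. The delta table rests on 101 control cells, with 138 and 78 cells in the first and the second knockout column. The knockout columns were not matched to a particular mouse. The listed UMIs came to 31552 per beta cell in the control and 24796 in the knockout, and to 3674, 3070 and 2643 per delta cell. The spread between control mice is unknown, there being 1, and that between knockout mice is known for delta cells and not for beta cells. Intervals in brackets are exact 95% intervals that cover counting error only. The targeted gene Ern1 was not lower, with 0.509 UMIs per beta cell in the control and 0.742 in the knockout. The part of Ern1 that was removed was not stated, so reads outside that part check nothing, and the genotypes are used as labelled.

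In beta cells both metallothioneins were lower in the knockout, by nearly the same factor. Mt1 was at 243.8 UMIs per cell in the control and 93.9 in the knockout, from 202096 and 76558 UMIs. Mt2 had 169 and 67.0, from 140483 and 54632 UMIs. The knockout over control ratio was 0.385 [0.382 to 0.389] for Mt1 (2.60-fold lower) and 0.396 [0.392 to 0.399] for Mt2 (2.53-fold lower). Both passed the size rule that stands in for a test, a difference of 1.5-fold or more, which 202 of the 8193 listed beta-cell genes (2.47%) passed in the lower direction. In the higher direction 3741 genes (45.7%) passed it. By any amount, 7780 genes were higher and 413 (5.04%) lower in the knockout. On the log2 scale the ratios were -1.38 and -1.34, against a median of 0.54 over all listed genes. Relative to that median they were -1.92 and -1.88. Only 63 listed genes (0.769%) had a lower ratio than Mt1, and 65 (0.793%) a lower ratio than Mt2.

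**Figure D1:**
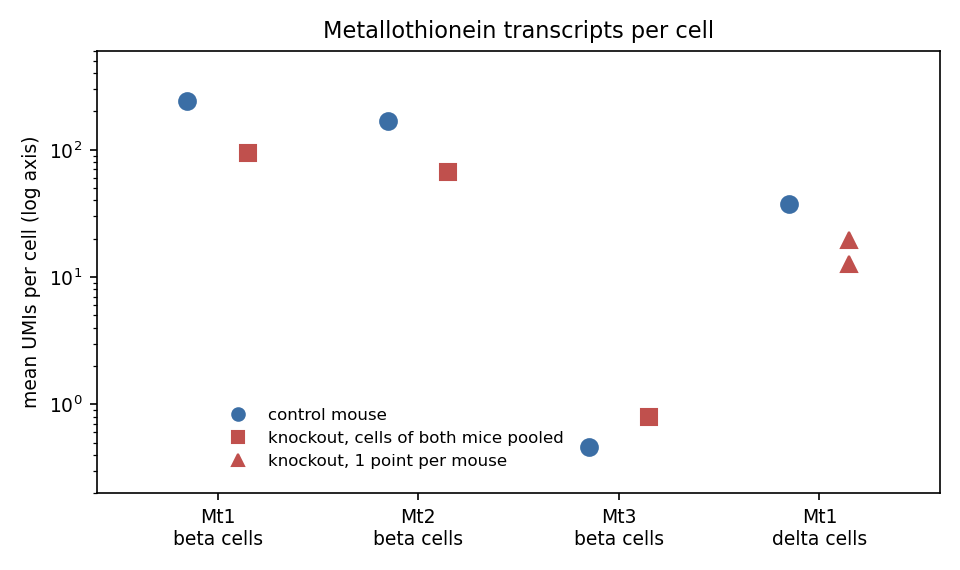
Mean UMIs per cell (log axis) of each metallothionein gene listed, for beta and delta cells. Circles are the control mouse, squares the pooled cells of both knockout mice and triangles 1 knockout mouse each. Mt1 and Mt2 were lower in knockout beta cells (243.8 to 93.9 and 169 to 67.0), Mt3 was higher (0.458 to 0.790), and Mt1 was lower in both knockout mice in delta cells (37.7 against 19.4 and 12.6).

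Mt1 and Mt2 were among the most abundant listed transcripts of control beta cells. Mt1 ranked 4 and Mt2 ranked 5 of all listed genes in control cells, behind Ins2, Ins1 (the insulin genes) and Iapp (which encodes amylin, secreted with insulin). In knockout cells they ranked 10 and 12. Of the 25 listed genes with the most UMIs per control beta cell, 5 were lower by the size rule: Ins1, Iapp, Mt1, Mt2 and Crybb3. The ratios of Mt1 and Mt2 were the lowest of these 25, and the median ratio of the other 23 was 1.01.

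Together the genes had 413 UMIs per beta cell in the control and 161 in the knockout, 252 fewer. After those of Ins2, Ins1 and Iapp, the falls of Mt1 (149.8 UMIs per cell) and Mt2 (102.4) were the largest in the table. The next was that of Crybb3, a crystallin gene, at 30.9 UMIs per cell. Over all 413 genes with fewer UMIs in the knockout the summed fall was 9263 UMIs per cell, of which Mt1 and Mt2 made up 2.72%. Without Ins1, Ins2 and Iapp the remaining 410 genes had 570 fewer UMIs per cell in sum, and Mt1 and Mt2 made up 44.3% of this.

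**Figure D2:**
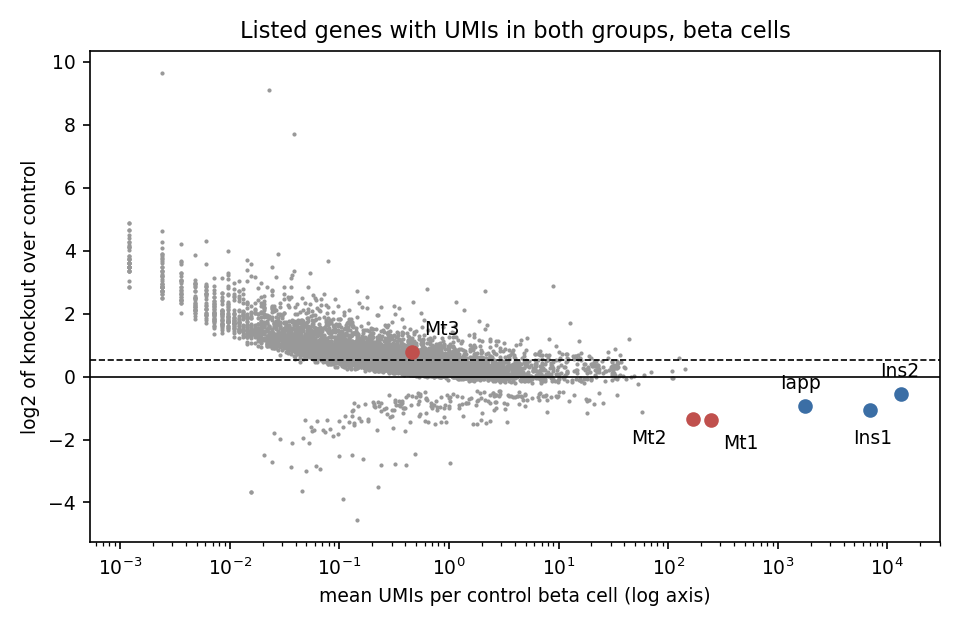
Log2 of the knockout over control ratio against mean UMIs per control beta cell (log axis), 1 point per listed gene with UMIs in both groups; the dashed line is the table's median, 0.54. Mt1 and Mt2 lie at -1.38 and -1.34 at a level where few genes other than Ins1, Ins2 and Iapp are found, and Mt3 at 0.79 lies above the dashed line.

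The share of the listed beta-cell UMIs that both genes took was also lower. Of all listed UMIs, Mt1 and Mt2 took 1.31% in control cells and 0.649% [0.646 to 0.653] in knockout cells. For Mt1 the share went from 0.773% to 0.379%, and for Mt2 from 0.537% to 0.270%. The insulin genes and Iapp fill most of that total and were themselves lower. Ins2 went from 13373 to 9146, Ins1 from 6900 to 3281 and Iapp from 1781 to 935 UMIs per cell. Without these 3 genes the share of Mt1 and Mt2 was 4.35% [4.34 to 4.37] in control and 1.41% [1.40 to 1.42] in knockout cells.

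The balance between the genes differed little. Control beta cells had 1.44 [1.43 to 1.45] Mt1 UMIs for each Mt2 UMI, and knockout cells 1.40 [1.39 to 1.42]. Mt1 was 59.0% of both genes' UMIs in control and 58.4% in knockout cells. The ratio of the genes differed by -2.59% between the groups, a difference beyond counting error and without a check against the spread between mice.

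Scaling changed the size of the difference and not its direction. Scaled to the listed total, the knockout over control ratio was 0.490 for Mt1 and 0.503 for Mt2 in beta cells. With Ins1, Ins2 and Iapp taken out of the total it was 0.320 and 0.329, and divided by the table's median ratio 0.265 and 0.272. In each cell type that median covers only genes already listed as different, so it is not a reference of unchanged genes. Under each of these both genes stayed past the size rule; relative to the median ratio 343 listed genes (4.19%) were lower by that rule and 1314 (16.0%) higher.

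**Figure D3:**
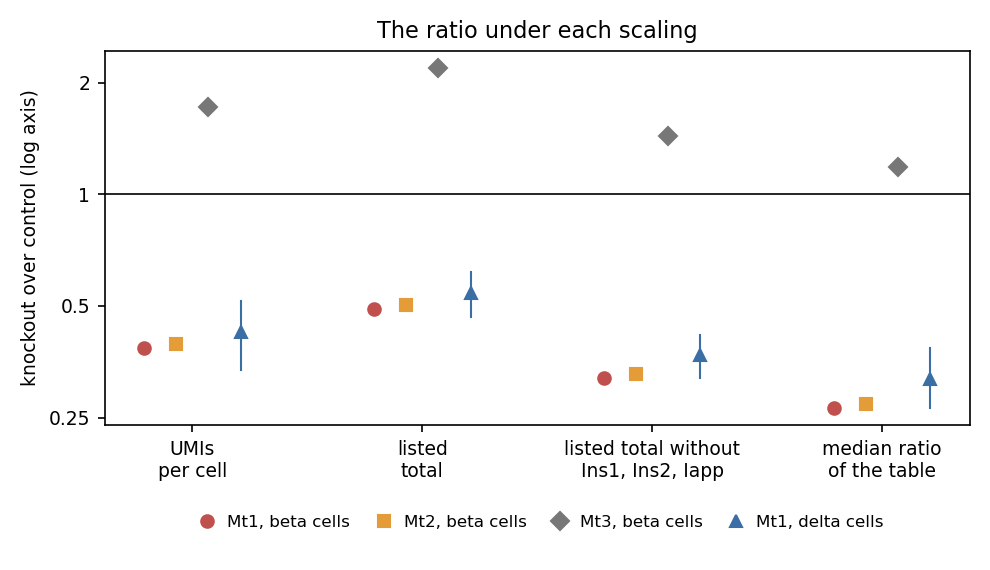
Knockout over control ratio (log axis) of each listed metallothionein gene as UMIs per cell and under 3 scalings; the vertical lines of Mt1 in delta cells join its 2 knockout mice. The points of Mt1 and Mt2 lie between 0.265 and 0.541 throughout, while Mt3 lies above 1, from 1.19 to 2.19. The line of Mt1 in delta cells reaches 0.616, the first knockout column scaled to the listed total.

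Mt3, the third listed metallothionein, did not share this direction. It had 0.458 UMIs per beta cell in the control and 0.790 in the knockout (380 and 644 UMIs), a ratio of 1.72 [1.52 to 1.96]. Its log2 ratio of 0.79 was 0.25 above the median of the table, and 70.5% of listed genes had a lower ratio. Mt3 is a rare transcript in these cells, at rank 2908 in the control. Mt4 was not analysed here.

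The other protein-coding genes around the cluster had the direction of most listed genes. Of the 10 nearest to Mt1 and Mt2, Mt3 and Mt4 included, 5 are listed for beta cells and all 5 had more UMIs in the knockout, as did all but 5.04% of the listed genes. Besides Mt3 these were Nudt21 (1.28), Ogfod1 (1.54), Herpud1 (1.48), which encodes an endoplasmic reticulum stress protein, and Cpne2 (4.43 [2.45 to 8.58]). All but Nudt21 were above the median ratio of the table. None of the neighbours is listed for delta cells.

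In delta cells Mt1 was lower in both knockout mice. It had 37.7 UMIs per cell in the control, 19.4 in the first and 12.6 in the second knockout column, from 3806, 2675 and 986 UMIs. The knockout mean was 16.0 ± 4.77 (SD, n = 2), and the control lay above both mice. The ratio to the control was 0.514 [0.489 to 0.541] in the first column and 0.335 [0.312 to 0.360] in the second, whose intervals do not overlap, so the knockout mice differed beyond counting error. The ratio of the mean was 0.425, or -1.23 on the log2 scale, against a median of 0.42 over the 231 listed delta-cell genes. By the size rule 37 of these genes (16.0%) were lower and 95 (41.1%) higher. Lower by that fold in each knockout mouse, as Mt1 was, were 26 genes (11.3%), and 41 genes (17.7%) were lower than the control in both mice by any amount. Of all listed genes, 10 (4.33%) had a lower mean ratio than Mt1.

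The rank and share of Mt1 were lower in knockout delta cells too. It ranked 8 of the listed genes in the control and 42 and 52 in the knockout columns. Its share of listed UMIs was 1.03% [0.993 to 1.06] in the control, 0.631% [0.608 to 0.656] in the first and 0.478% [0.449 to 0.509] in the second knockout column. Iapp, the most abundant gene of that total, went from 1825 to 797 and 698 UMIs per cell. Without Iapp the share of Mt1 was 2.04% in the control and 0.853% and 0.650% in the knockout columns. The ratio of the mean was 0.541 after scaling to the listed total, 0.369 without Iapp and 0.318 relative to the median ratio. Relative to that median 42 of the listed genes (18.2%) were lower by the size rule and 45 (19.5%) higher.

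With the mouse as the unit, limma on log2 values of all 231 delta-cell genes gave Mt1 a log2 difference of -1.25. The fit had 1 residual degree of freedom, from the 2 knockout mice, and took the single control to vary as they do. It used a spread pooled over genes (SD 0.251) that was below the SD of Mt1 itself between the knockout mice (0.427). The spread of each gene itself had no weight in the fit. The authors had also listed these genes as different on the same cells. The p-values of the fit would thus be too small and are not given.

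Beta cells held more Mt1 than delta cells in either genotype. The control level was 6.47-fold higher in beta cells, and the knockout level 5.87-fold. In order, Mt1 was at 243.8 UMIs per cell in control and 93.9 in knockout beta cells, 37.7 in control delta cells, and 19.4 and 12.6 in knockout delta cells. No spread between mice is known for the first 3 of these levels. Among the 207 genes that both tables list, the median delta over beta level in the control was 0.834, and 7 genes had a lower value than the 0.155 of Mt1. The beta-cell ratio of 0.385 lay between the ratios of the knockout mice in delta cells. Whether the ratio differed between the cell types was not tested.

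In delta cells, alpha-cell transcripts were higher in the knockout columns in which Mt1 was lower. Gcg, the glucagon gene of alpha cells, had 10.0 UMIs per control delta cell and 159 and 63.5 in the knockout columns, and Ttr, also of alpha cells, had 1.01, 4.36 and 2.58. Gcg was highest in the first column, where the ratio of Mt1 was 0.514, and not in the second, where it was 0.335. Summed over the 2 of 5 alpha-cell markers listed, the level was 11.0 in the control, and 163 and 66.1 in the knockout columns. Rbp4, a delta-cell marker, went from 137 to 84.2 and 69.1. Iapp is the 1 of 8 beta-cell markers listed for delta cells, and its ratio of 0.410 (1825 to 797 and 698 UMIs per cell) was close to the 0.425 of Mt1. Its control level in delta cells was near the 1781 of beta cells, whereas that of Mt1 was 15.5% of the beta-cell level. Sst, which defines delta cells, and the insulin genes are not listed for delta cells and gave no check of the label or of beta-cell RNA there. In control alpha cells, which list it, Ins2 had 214 UMIs per cell against 13373 in control beta cells. The part of mixed cells or free RNA in the level of Mt1 was not tested.

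In beta cells all 6 listed beta-cell markers of 8 were lower, from 22059 to 13364 UMIs per cell in sum. The listed markers of other endocrine cells were all higher in the knockout, as were all but 5.04% of listed genes. Those of alpha cells (3 of 5) summed to 48.8 and 113 UMIs per cell, those of delta cells (3 of 3) to 39.6 and 64.6, and those of PP and epsilon cells (2 of 3) to 21.7 and 107. Duct markers (4 of 7) were at 38.4 and 70.3 UMIs per cell, of which Spp1 alone had 32.6 and 59.8. Red-cell globins (3 of 4) were at 0.0639 and 22.6 UMIs per cell. Endothelial, mesenchymal, immune and acinar markers stayed below 0.6 UMIs per cell in sum in both groups, with the acinar gene Reg3b at 0 in the control. The part of these cells in the levels of Mt1 and Mt2 was not tested.

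The gene lists that follow hold pathways known to control metallothioneins or to handle metals, and their counts cover only the members that the authors listed. The background in beta cells is that 7780 of the 8193 listed genes were higher by any amount and 45.7% by the size rule. In the lower direction the shares were 5.04% and 2.47%. Counts of higher members near or below the shares of higher genes do not set a list apart. Of 7 genes on the list of the zinc sensor and its targets, 4 are listed for beta cells and all had more UMIs in the knockout, 1 of them by the size rule. Their median log2 ratio was 0.46, which was -0.08 relative to all listed genes. Mtf1, the zinc sensor itself, had 0.369 UMIs per cell in the control and 0.425 in the knockout, for a ratio of 1.15 [0.983 to 1.35] whose interval includes 1. Gclc, of glutathione synthesis, was at 1.57 [1.36 to 1.81].

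For the zinc transporters too, the counts of higher members lay near or below the shares of higher genes. The exporters Slc30a9 (1.39) and Slc30a4 (1.18) were the 2 of 10 listed, and neither passed the size rule. Of 14 importers 8 are listed, 7 higher and 1 lower, with 3 higher and 0 lower by the size rule. Their median was 0.40 on the log2 scale (-0.14 relative to all genes). The importer gene Slc39a14 was at 1.80 [1.41 to 2.32], Slc39a11 at 1.76, Slc39a9 at 1.13 and Slc39a7, of the early secretory pathway, at 0.957 [0.888 to 1.03]. Scaled to the listed total, none of the listed zinc sensor, exporter and importer genes was lower. Relative to the median ratio, 3 of 4, 2 of 2 and 5 of 8 were.

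Copper and iron genes were mostly higher as UMIs per cell, like the listed genes at large, and a smaller share of them than of all listed genes (45.7%) was higher by the size rule. All 6 listed copper genes of 12 were higher (median 0.34, -0.20 relative to all genes), 1 by the size rule. The mitochondrial copper chaperone gene Sco1 was at 1.91 [1.29 to 2.86] and the cytosolic one, Atox1, at 1.06. Of 16 iron genes 11 are listed, 10 higher and 1 lower, 4 and 1 by the size rule, with a median of 0.29 (-0.25 relative to all genes). Cp, the ferroxidase ceruloplasmin, was at 2.88 [2.14 to 3.94] and Trf, transferrin, at 2.85 [1.34 to 6.57]. Tfrc, the transferrin receptor that brings iron into the cell, had 0.528 UMIs per control and 0.223 per knockout cell. Its ratio of 0.423 [0.354 to 0.504] was near those of Mt1 and Mt2. In delta cells the copper chaperone gene Cox17 was at 1.19 and Fth1, the ferritin heavy chain, at 1.17, both higher in both knockout mice. By the knockout mean, 81.4% of listed delta-cell genes were higher. Relative to the median ratio of delta cells both genes were lower, at 0.890 and 0.873.

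The glucocorticoid and NRF2 lists, of 2 known routes of induction of Mt1 and Mt2, had no listed member with fewer UMIs in knockout beta cells, and their shares of higher genes by the size rule were below the 45.7% of all listed genes. The glucocorticoid response had 6 of 9 genes listed, all higher as UMIs per cell, 2 by the size rule (median 0.52, -0.02 relative to all genes). Klf9 was at 1.88 [1.60 to 2.22], Dusp1 at 1.78 and Fkbp5 at 1.39. In delta cells Errfi1 went from 1.72 to 2.78 and 4.46 UMIs per cell. Targets of NRF2, the factor of the antioxidant response, had 13 of 14 genes listed and 13 higher, 5 by the size rule (median 0.42, -0.12 relative to all genes). Osgin1 was at 2.33 [1.81 to 3.03], Gclm at 1.90, Txn1 at 1.07 and Hmox1, which degrades heme, at 1.07. Relative to the median ratio, 3 of the 6 glucocorticoid genes and 8 of the 13 NRF2 targets were lower.

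**Figure D4:**
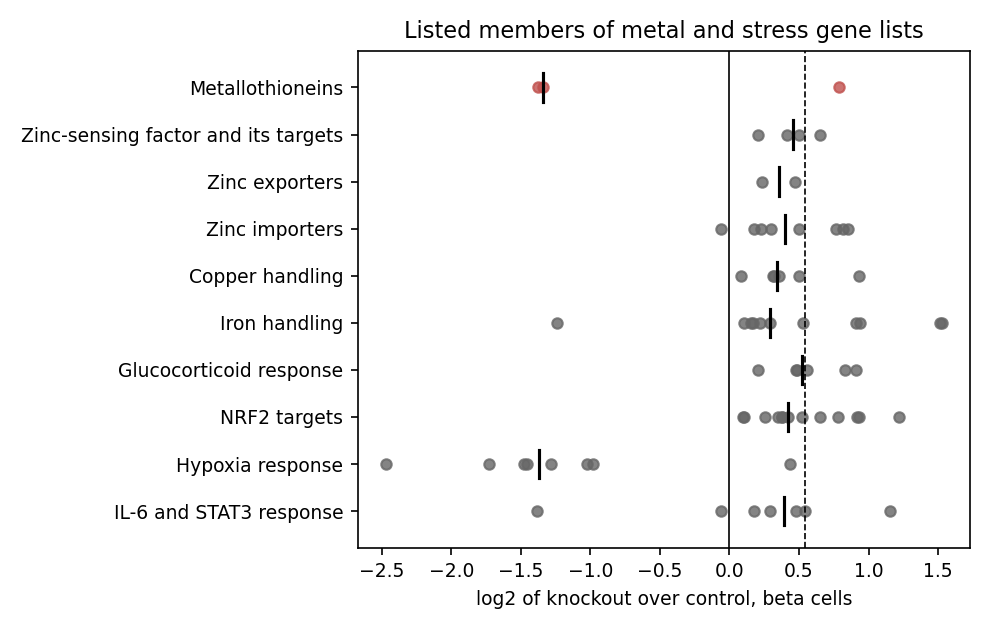
Log2 of the knockout over control ratio in beta cells for each listed gene of 10 lists, 1 point per gene; the short bar is the list's median and the dashed line the median of all listed genes, 0.54. Mt1 and Mt2 (red, at -1.38 and -1.34) lie with the hypoxia genes (median -1.37); Reg3b, with no UMI in the control, is not drawn but enters its list's median at its bound.

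The hypoxia response was the list with the direction of Mt1 and Mt2. Of 13 genes 8 are listed for beta cells, of which 7 were lower and 1 higher, where 5.04% of all listed genes were lower. All 7 were lower by the size rule, as were 2.47% of all listed genes. Like the other lists, this one was chosen with earlier results of these data known. The median log2 ratio was -1.37, or -1.91 relative to all listed genes, beside -1.38 for Mt1. Ldha, which makes lactate, went from 0.490 to 0.0883 UMIs per cell (0.180 [0.138 to 0.232]), and Ankrd37 from 0.402 to 0.121 (0.302 [0.239 to 0.380]). The collagen hydroxylase gene P4ha1 was at 0.508 [0.445 to 0.579]. Hif1a, which encodes the factor that drives this response, went the other way at 1.35 [1.25 to 1.47], still below the median ratio.

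The hypoxia genes were lower in the other cell types too. In delta cells the 2 listed were below the control in both mice, as were 41 of the 231 listed genes (17.7%). Ldha had 2.05 UMIs per cell in the control, and 0.601 and 0.385 in the knockout columns. Bnip3 had 1.11, 0.551 and 0.282. In alpha cells, where the metallothioneins were not analysed here, 4 are listed and all 4 were lower by the size rule, as were 56 of the 186 listed genes (30.1%; 10.8% were higher). All 4 were lower by that fold in each knockout mouse, as were 38 listed genes (20.4%), and 95 (51.1%) were below the control in both mice by any amount. These were Ldha, Bnip3, Slc2a1 and Pgk1, with ratios of the mean of 0.135, 0.328, 0.440 and 0.459. Their median log2 ratio was -1.38, against -0.29 over all listed alpha-cell genes.

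The IL-6 and STAT3 list held genes of both directions in beta cells. Of 12 genes 8 are listed for beta cells, 6 higher and 2 lower, 2 and 1 by the size rule (median 0.39, -0.15 relative to all genes). Fgg, a fibrinogen chain gene, had 1.95 UMIs per control and 0.747 per knockout cell, for a ratio of 0.384 [0.349 to 0.422] almost equal to that of Mt1. Junb was at 2.23 [2.14 to 2.31], and Reg3b, with no UMI in control cells, was at least 31.5-fold higher, taking a floor of 3 UMIs for the control group. Stat3 was at 0.960 [0.921 to 1.00], an interval that includes 1. In delta cells all 4 listed genes were higher in the knockout mean, as were 81.4% of all listed delta-cell genes. By the size rule 3 were higher, as were 41.1% of all listed delta-cell genes. Whether the list differed between cell types was not tested. Socs3, a feedback inhibitor, had 0.822 UMIs per control cell and 1.48 and 1.81 in the knockout columns, and Stat3 had 1.64, 2.88 and 2.81. Lcn2 was on both sides of its control (5.97, against 5.27 and 7.71). In alpha cells Saa3 went from 1.02 to 0.914 and 0.209.

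Genes with the pattern of Mt1 were ranked by the root mean square difference of their log2 ratios from those of Mt1, over 3 knockout columns, 1 of beta and 2 of delta cells. The ratios within a cell type share a control. With 203 genes compared to Mt1, 18 genes, Mt1 among them, were lower in all 3 columns. The nearest were Fkbp11 (0.22), a prolyl isomerase gene of the endoplasmic reticulum, Bnip3 (0.24), of mitophagy, Iapp (0.31), Tpi1 (0.38), of glycolysis, and Mif (0.39), a cytokine gene. In log2 ratios Mt1 was at -1.38 in beta cells and at -0.96 and -1.58 in the delta columns. Fkbp11 was at -1.49, -0.77 and -1.89, and Bnip3 at -1.48, -1.01 and -1.98. Each of these 6 genes was lower in the second delta column than in the first. The genes beside Mt1 were chosen by likeness to it over these same columns, which favours that shared order. Listed UMIs per delta cell were 3070 in the first and 2643 in the second column. Fkbp11 went from 1.66 to 0.588 UMIs per cell in beta cells, and from 4.08 to 2.38 and 1.10 in delta cells, levels far below those of Mt1.

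**Figure D5:**
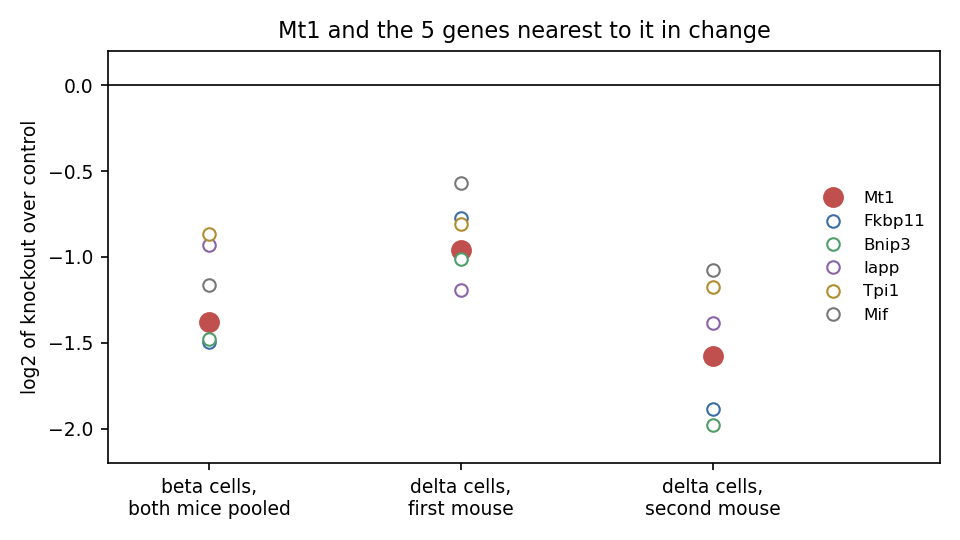
Log2 of the knockout over control ratio of Mt1 (filled) and of the 5 genes nearest to it (open), in beta cells and in the first and second delta-cell column. Each gene is below 0 in each column, and Mt1 lies at -1.38, -0.96 and -1.58.

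For Mt2, listed in beta cells alone, likeness could be measured over 1 column. Among 8089 genes the nearest in log2 ratio were Scrt1, Fmo1, Mt1, Fgg and Slc2a1, at -1.35, -1.33, -1.38, -1.38 and -1.29 beside -1.34 for Mt2.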

How the data were processed

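The submitters' processing notes name Cell Ranger 3.0.0 and the build mm10. For cell filters, doublets, free RNA, cell typing, read length and the test behind the tables, the method was not given in the sources used here. The authors deposited, per cell type, genes with a signal value, mean UMIs per cell, not scaled for depth. This was worked out from the values: times 1 cell number per column, they gave whole UMIs within 0.001 for 99.99% of genes in control beta cells and 100% elsewhere. The deposited p-values and q-values were computed from cells and were not used, beyond the largest q in each table (beta 0.00998, alpha 0.0101, delta 0.0103), so only genes that had already been chosen as different were analysed. Genes outside these tables were not analysed here.

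Ratios are knockout over control with no pseudocount. Where the 2 knockout mice have separate columns, their unweighted mean was taken. Exact intervals (Clopper-Pearson, 95%) were computed on the split of UMIs for a ratio and on the share for a percentage, and they cover counting error only. A group with no UMI was set to a floor of 3 UMIs over its cells, which makes the ratio a bound. With 1 control mouse, a fold of 1.5 or more was counted in place of a test. The limma fit (limma 3.58.1 in R 4.3.3, no trend of the spread, pseudocount 0.346, the 10th percentile of nonzero means) was added after seeing the data. Other steps used Python 3.11.15, pandas 2.3.3, scipy 1.17.1 and Biopython 1.88.

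The genes and the 10 lists were chosen with earlier results of these data known. Named genes were Mt1 and Mt2, up to 4 listed members per list (the 2 highest and 2 lowest ratios in beta cells, and any listed in alpha or delta cells), the 5 genes nearest in pattern, the 5 protein-coding neighbours on either side, and genes that check labels; not every one is printed. Crybb3 was named after its value was seen. Alternatives were 3 scalings, a pseudocount, pooled knockout cells, each knockout mouse left out, other totals for the shares and, for the counts, a fold of 2 and a filter on low values.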

Additional observations from a re-analysis of the deposited data

Results flagged for a closer look

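Among the genes of the pathway lists, 3 lay on opposite sides of the control in 2 cell types as UMIs per cell. For each, both knockout mice were on the same side wherever mice were separate. Ftl1, the ferritin light chain, had a knockout over control ratio of 1.11 in beta cells and 0.712 in alpha cells. Prdx1, a peroxiredoxin, was at 1.20 in beta cells and 0.738 in alpha cells. Relative to the median ratio of each table both genes were on the same side, with Ftl1 at 0.765 and 0.872 and Prdx1 at 0.822 and 0.904. These medians cover only genes already listed as different, so the side taken relative to them is not a direction against unchanged genes. Stat3 was at 0.960 in beta cells, where its interval [0.921 to 1.00] includes 1, and at 1.73 in delta cells (0.660 and 1.30 relative to the medians). The difference between cell types was not tested for any of the 3 genes, and the pooled beta-cell column shows no separate mice.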

How the results depend on the processing

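All 17 alternatives of the Mt1 and Mt2 ratios kept the direction and the fold of 1.5 (0.265 to 0.541). The limma fits among them, without and with a trend, rest on 1 control and on genes already listed as different. Their p-values say nothing about stability and are not given. In beta cells 6 of the 17 alternatives moved the value beyond counting error. Scaling to the listed total gave 0.490 for Mt1 and 0.503 for Mt2. Scaling to that total without Ins1, Ins2 and Iapp gave 0.320 and 0.329, and division by the median ratio 0.265 and 0.272. Leaving out either knockout mouse gave 0.335 to 0.514 for Mt1 in delta cells, and shares of 0.478% to 0.631%. The value of Mt1 and Mt2 in beta cells was larger under each smaller total than the 1.31% and 0.649% of all listed UMIs. It was 4.35% in control and 1.41% in knockout cells without Ins1, Ins2 and Iapp, and 4.40% and 1.44% without all hormone genes. Without Ins1, Ins2, Iapp, Mt1 and Mt2 it was 4.55% and 1.43% (added after seeing the data). Over the 206 genes shared with the delta table, Mt1 and Mt2 left out, it was 10.1% and 4.39%. Where Mt1 and Mt2 are left out of the total, the value is a ratio to it and not a share. For Mt1 in delta cells the first 3 of these totals gave 2.04%, 2.05% and 2.08% in the control and 0.751%, 0.794% and 0.757% in the knockout mean (0.555% of all listed UMIs).

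Counts of genes by the size rule depended on the setting. In beta cells the 3741 higher and 202 lower genes became 1626 and 99 at a fold of 2, 1243 and 125 with the filter on low values, 1314 and 343 relative to the median ratio, and 2171 higher with a pseudocount. In alpha cells the 20 higher and 56 lower became 5 and 22, 4 and 24, 47 and 26, and 10 higher, in the same order; without either mouse they were 21 to 25 and 49 to 64. In delta cells the 95 higher and 37 lower became 46 and 15, 24 higher, 45 higher and 60 higher; without either mouse they were 81 to 89 and 29 to 44. Fewer genes pass a larger fold or a filter by construction, and the rest of the cause was not tested. The planned count test on UMIs of alpha and delta cells was not run. Values times the cell number were whole there, but these short tables did not meet the separate check on low values that was set as its condition. The Mt1 to Mt2 ratio and the beta-cell values could not be taken without either mouse, since that column pools both. No paired analysis was possible because there was 1 control mouse and the columns carry no mouse numbers shared between groups. With 101 control delta cells and 1 control mouse, the spread between mice limits these values more than counting does and is unknown for the control.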
